A study of Mus musculus with 6 samples.

Results

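Cd300a, Cd300lb, Cd300ld and Cd300lf are 4 genes of the CD300 family of myeloid receptors, and their transcripts were followed in macrophages with and without AEG-1. They were chosen by name from the 46983 genes of the count table, with their change between the genotypes already known, so the difference in each of them is described here without a test. The RNA came from macrophages derived from bone marrow, that is, cells grown out of mouse marrow in a medium that turns precursors into macrophages. There were 3 libraries of wild-type (WT) cells and 3 of cells from knockout mice (AEG-1 KO), both of strain C57BL/6. Femur marrow had been kept for 7 days with 20% L929 conditioned medium, the supernatant of a fibroblast line that supplies macrophage growth factor, and 10% heat-inactivated serum, and no stimulus was added. Mtdh is the gene that encodes AEG-1. Which part of Mtdh was deleted, and whether replicates were separate animals or cultures, is not given in the sources used here. The p-values therefore cover only the spread among these 6 libraries, and that spread may be technical.

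CD300 receptors are single-pass membrane proteins with 1 immunoglobulin-like domain outside the cell, and many of them bind lipids such as phosphatidylserine that are exposed on dying cells. Inhibitory members carry tyrosine motifs (ITIMs) in a long tail that recruit phosphatases, while activating members have short tails and signal through adaptors with activation motifs (ITAMs). CD300a and CD300lf (CLM-1) are the inhibitory kind, CD300lb (CLM-7) pairs with the adaptor DAP12, and CD300ld (CLM-5) pairs with the Fc receptor gamma chain.

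The 4 genes lie in a cluster on chromosome 11 (GRCm38), in which 11 of the 12 annotated CD300 genes sit within 244 kb. Cd300a (ENSMUSG00000034652) spans 114890041 to 114904654 on the plus strand. On the minus strand, Cd300lb (ENSMUSG00000063193) spans 114922781 to 114934386, Cd300ld (ENSMUSG00000034641) 114982274 to 114989922 and Cd300lf (ENSMUSG00000047798) 115116214 to 115133992. The family grew by gene duplication and some members still share long stretches, which matters here because a short read from such a stretch can be assigned to the wrong gene or dropped. The pair that concerns the 4 genes is Cd300ld and Cd300lf, which differed between the genotypes in opposite directions. Their coding sequences shared 349 nucleotides at 94.84% identity, bases 35 to 383 of Cd300ld and 38 to 386 of Cd300lf. The 120 bases below are bases 40 to 159 of the Cd300ld coding sequence (minus strand, 2 coding exons between 114987526 and 114989771 of chromosome 11), with the aligned bases of Cd300lf and of other relatives, from GENCODE transcripts. Capitals mark bases that differ from Cd300ld.
Cd300ld: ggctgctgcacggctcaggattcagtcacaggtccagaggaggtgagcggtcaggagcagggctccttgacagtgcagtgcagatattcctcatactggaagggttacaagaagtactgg
Cd300lf: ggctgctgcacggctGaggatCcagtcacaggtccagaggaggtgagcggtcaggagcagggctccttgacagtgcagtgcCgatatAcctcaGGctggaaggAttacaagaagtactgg
Cd300ld2: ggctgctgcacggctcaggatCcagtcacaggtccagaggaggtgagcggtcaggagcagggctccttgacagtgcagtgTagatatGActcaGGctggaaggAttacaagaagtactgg
Cd300ld4: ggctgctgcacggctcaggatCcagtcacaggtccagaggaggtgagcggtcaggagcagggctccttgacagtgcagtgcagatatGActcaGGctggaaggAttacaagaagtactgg
Cd300lf differed from Cd300ld at 7 of the 120 bases, Cd300ld2 at 7 and Cd300ld4 at 6, and Cd300ld3 and Cd300ld5 were identical to Cd300ld4 here.

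Over whole transcripts the 4 genes were nearly all unique in stretches of 50 to 100 nucleotides. A stretch of 50 nucleotides occurred in no other gene's transcripts for 100% of the positions of Cd300lb, 97.6% of Cd300lf, 96.5% of Cd300a and 96.1% of Cd300ld, and 3.66% of those of Cd300ld were shared with Cd300lf. At 100 nucleotides the unique share was 99.4% for Cd300lf, 99.2% for Cd300a and 98.6% for Cd300ld. These shares count positions and not reads: in WT replicate 1 Cd300ld was given 7224 reads and Cd300lf 713. A small shared part of Cd300ld can thus weigh more in the count of Cd300lf, which was not tested. Neither the read length nor the handling of reads that match several genes is given in the sources used here. At a minimum of 95% identity over 100 nucleotides, 7 pairs of CD300 genes shared a stretch over any of their transcripts: Cd300ld with Cd300lf (344 nucleotides at 95.06% in the best alignment), and all 6 pairs among Cd300ld2, Cd300ld3, Cd300ld4 and Cd300ld5. Cd300a had such stretches with 4 genes outside the family, and its closest CD300 relative was Cd300c2, with 364 nucleotides at 93.96% identity. Over aligned coding bases, identity was 86.6% to 87.0% for Cd300ld with Cd300ld2 to Cd300ld5, its closest relatives, 83.5% for Cd300ld and Cd300lf, 81.3% for Cd300a and Cd300c2, 70.1% for Cd300lb and Cd300lf, and 67.5% for Cd300a and Cd300lb. Cd300a and Cd300lb, whose fold changes were nearly equal, were thus not near-copies of each other. The exons of the 12 genes overlapped exons annotated on the opposite strand by 0 bases, also for Cd300lf, which lies inside Rab37 on the opposite strand.

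**Figure D1:**
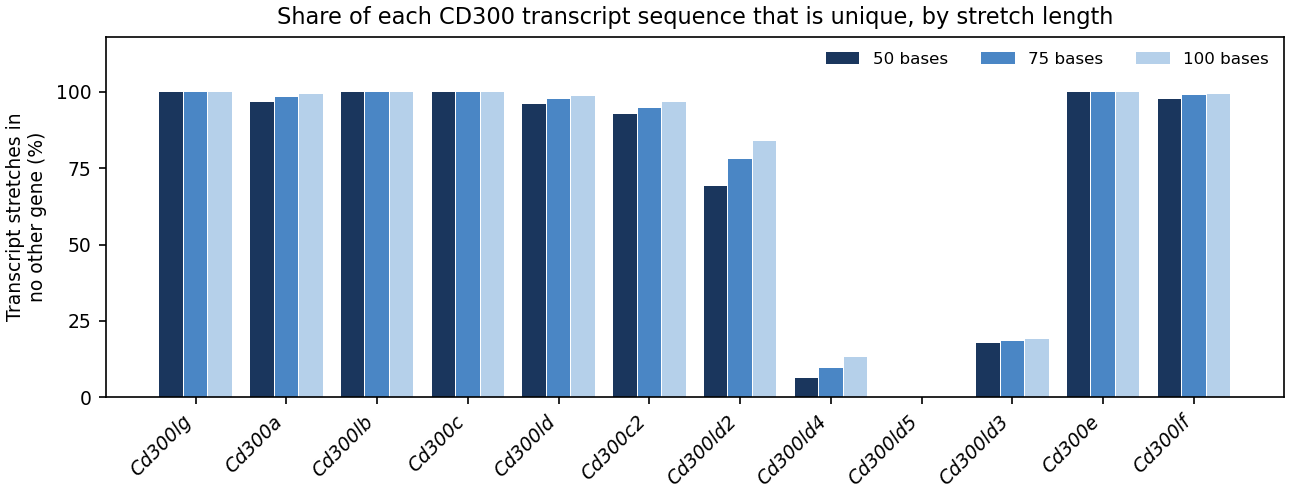
Share of the stretches of 50, 75 and 100 bases in each CD300 gene's transcripts that occur in no other gene (percent, vertical axis), for the 12 genes. At 50 bases Cd300a, Cd300lb, Cd300ld and Cd300lf lie between 96.1% and 100%, while Cd300ld3, Cd300ld4 and Cd300ld5 lie between 0% and 17.9%.

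The sequence just before the start of each of the 4 genes is printed because they moved in different directions from 1 cluster. The 150 bases before the RefSeq start (GRCm38.p6) are chr11:114889891-114890040 on the plus strand for Cd300a, and on the minus strand chr11:114934372-114934521 for Cd300lb, chr11:114989887-114990036 for Cd300ld and chr11:115133993-115134142 for Cd300lf. Capitals mark GAGGAAG, or its reverse complement, a motif of the type bound by the myeloid factor PU.1.
Cd300a: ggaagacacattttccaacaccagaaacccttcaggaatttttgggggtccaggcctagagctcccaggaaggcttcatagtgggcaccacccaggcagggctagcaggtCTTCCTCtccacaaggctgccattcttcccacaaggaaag
Cd300lf: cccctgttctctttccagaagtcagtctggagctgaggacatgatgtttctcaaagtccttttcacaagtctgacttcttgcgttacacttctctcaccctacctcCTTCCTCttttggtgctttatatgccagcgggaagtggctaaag
Cd300lb: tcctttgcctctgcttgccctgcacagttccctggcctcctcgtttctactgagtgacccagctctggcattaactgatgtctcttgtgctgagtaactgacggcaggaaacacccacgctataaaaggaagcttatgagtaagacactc
Cd300ld: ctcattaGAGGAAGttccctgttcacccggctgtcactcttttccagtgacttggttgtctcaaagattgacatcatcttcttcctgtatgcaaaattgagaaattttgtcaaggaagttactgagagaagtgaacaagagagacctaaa
GAGGAAG, searched on both strands, stood at bases -40 to -34 of Cd300a and -44 to -38 of Cd300lf, as the reverse complement, and at -143 to -137 of Cd300ld. It was in 3 of the 10 CD300 windows found in RefSeq and in 6.85% of 32851 windows of that length over all genes. Neither TGANTCA (AP-1, 4.24% of all windows) nor TTGCNNAA (C/EBP-type, 5.46%) was in any of the 10, and matches were counted for each motif on its own. These matches are a description of letters and not of binding.

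The 6 libraries held 42548170 to 58947230 counts each. Mtdh fell from 262 ± 9.97 to 0.395 ± 0.106 CPM (read counts scaled to a common library size with TMM factors; mean ± SD, n = 3; adjusted p = 6.62e-11 by edgeR), which checks the genotype labels. Of 16115 genes tested with edgeR's quasi-likelihood test, 6.35% were called at the adjusted threshold of 0.05: 3.31% were higher in AEG-1 KO and 3.04% were lower. The 3 values of each genotype did not overlap for 26.8% of genes. The 10 macrophage markers summed to 17870 to 18330 CPM in WT and 18410 to 19050 CPM in AEG-1 KO. Of the 10, 4 were called higher, among them Mrc1 with a log2 fold change of 0.42 and Cd14 with 0.35. The 1 called lower was Adgre1, with -0.19 (edgeR adjusted p = 0.0238). The summed markers of monocytes and neutrophils, cells that also carry CD300 receptors, differed between the genotypes. The summed level of 10 monocyte markers ran from 209 to 230 CPM in WT and from 262 to 281 CPM in AEG-1 KO (5 of 10 called, all higher). That of 11 tested neutrophil markers of 13 ran from 197 to 225 CPM and from 250 to 295 CPM (6 higher, 1 lower), with Mpo and Elane too low to test. Stromal markers summed to 7.44 to 9.16 CPM in WT and 12.7 to 15.0 CPM in AEG-1 KO (5 of 9 tested of 10 called, all higher), and osteoclast markers to 182 to 203 CPM and 152 to 164 CPM (2 higher and 2 lower of 5 tested of 8). No marker was called by edgeR among 7 tested dendritic cell markers, 3 mast cell and basophil markers or 2 T and NK cell markers, and 1 of 5 B cell markers was higher. The mast cell genes Mcpt4, Mcpt8 and Tpsb2 had 0 counts in every library. The part of these cell types in the results below was not tested. In bulk RNA, fewer cells of a type and less RNA per cell cannot be told apart.

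Both inhibitory receptors were higher in AEG-1 KO. Cd300a, a phosphatidylserine receptor that restrains mast cells and phagocytes, stood at 192.2, 199.2 and 198.9 CPM in WT replicates 1 to 3 and at 253.4, 249.2 and 248.7 CPM in AEG-1 KO replicates 1 to 3. Every AEG-1 KO library lay above every WT library, and the gap between the groups was far wider than the spread inside either. The mean went from 196.8 ± 3.98 to 250.4 ± 2.57 CPM, 1.27-fold, a log2 fold change of 0.35 ± 0.04 (SE). Cd300lf, the inhibitory receptor that also serves as the entry receptor of murine norovirus, stood at 15.96, 18.27 and 18.18 CPM in WT and at 26.32, 27.24 and 28.14 CPM in AEG-1 KO. It was the least abundant of the 4 and had the largest fold change among them. Its mean went from 17.5 ± 1.31 to 27.2 ± 0.910 CPM, 1.56-fold, a log2 fold change of 0.64 ± 0.07, on 713 to 1261 reads per library.

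The activating receptors went in opposite directions. Cd300lb, which signals through DAP12, stood at 123.9, 130.1 and 122.7 CPM in WT and at 158.7, 158.2 and 162.7 CPM in AEG-1 KO. The groups were apart, and the log2 fold change, 0.35 ± 0.04 from 125.6 ± 3.96 to 159.9 ± 2.45 CPM, had the size of that of Cd300a. Cd300ld, which signals through the Fc receptor gamma chain, was the only one of the 4 that was lower, at 161.7, 172.6 and 170.9 CPM in WT and 150.7, 140.1 and 139.0 CPM in AEG-1 KO. Its groups did not overlap, but AEG-1 KO replicate 1 lay nearer to the WT libraries than the other two did. The mean went from 168.4 ± 5.89 to 143.3 ± 6.43 CPM, 0.851-fold, a log2 fold change of -0.23 ± 0.05. All 4 genes were past the threshold of the fit, 3 higher and 1 lower, and all 4 had groups apart. These counts stand beside the 6.35% and 26.8% of all genes given above, and nothing is read from them, since the genes were chosen on this contrast.

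**Figure D2:**
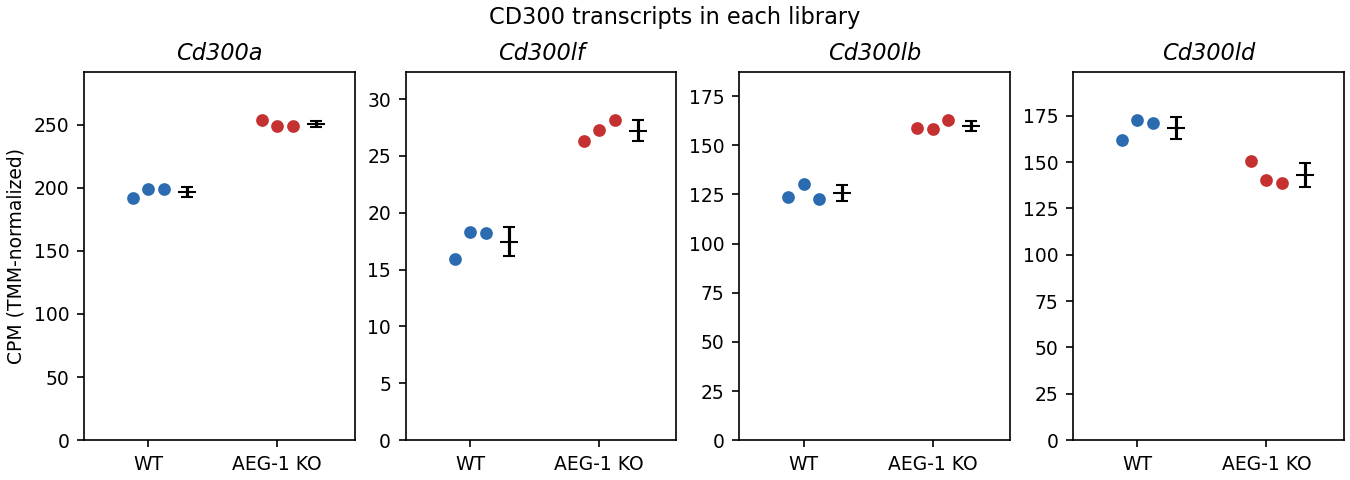
Level of Cd300a, Cd300lb, Cd300ld and Cd300lf in each library (CPM, vertical axis, starting at 0), with the mean and SD of the 3 WT and 3 AEG-1 KO libraries. The 3 AEG-1 KO points lie above the WT points for Cd300a, Cd300lb and Cd300lf and below them for Cd300ld.

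The distance from the threshold differed between the 4. Cd300a, Cd300lb and Cd300lf were past it in each of 14 other fits, with log2 fold changes of 0.32 to 0.36, 0.33 to 0.37 and 0.57 to 0.67. Cd300ld lay nearest to it and was past it in 10 of the 14. Leaving out WT replicate 2, or either of replicates 2 and 3 of AEG-1 KO, took it back across, at log2 fold changes of -0.22 in all 3 cases, and over the 14 fits the value ran from -0.27 to -0.22. The other fits used the same libraries on which the 4 genes were chosen. They describe dependence on the settings and are not support for the differences.

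Per length of transcript, the 3 better expressed genes were near to each other and Cd300lf was far below them. Levels between genes are given as RPKM, reads scaled by library size and by length of exon in kilobases. In WT, Cd300ld was at 63.7 ± 2.23 RPKM, Cd300lb at 43.1 ± 1.36, Cd300a at 41.5 ± 0.840 and Cd300lf at 3.39 ± 0.254. The values of Cd300lb (42.1 to 44.6 RPKM) and Cd300a (40.6 to 42.0 RPKM) came within a fraction of a unit of each other without overlapping. Scaled by the longest coding transcript instead, they did overlap (42.6 to 45.2 and 41.4 to 42.9 RPKM). In AEG-1 KO, Cd300lb at 54.8 ± 0.840, Cd300ld at 54.2 ± 2.43 and Cd300a at 52.9 ± 0.543 RPKM formed a run in which neighbours overlapped, and Cd300lf reached 5.29 ± 0.177 RPKM. The lead that Cd300ld held in WT was thus absent in AEG-1 KO. Among all tested genes the mean RPKM of Cd300a, Cd300lb and Cd300ld stood at the percentiles 91.8, 92.1 and 93.5, and that of Cd300lf at 48.6. Cd300lf has a long union of exons of 5149 bases, and over its longest coding transcript of 1885 bases its level was 9.27 ± 0.695 RPKM in WT and 14.5 ± 0.483 in AEG-1 KO.

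Cd300ld held a smaller share of the 4 in AEG-1 KO than in WT. Cd300ld made up 42.0 ± 0.470% of their summed RPKM in WT and 32.4 ± 0.993% in AEG-1 KO. Cd300lb went from 28.4 ± 0.649% to 32.8 ± 0.765%, Cd300a from 27.4 ± 0.301% to 31.6 ± 0.201%, and Cd300lf from 2.24 ± 0.115% to 3.17 ± 0.143%. The 4 shares add to 100%, so they cannot move independently. The ratio of Cd300a to Cd300ld in RPKM went from 0.652 ± 0.00999 to 0.977 ± 0.0330, whereas that of Cd300lb to Cd300a was 1.04 in both genotypes, with overlapping values. Their summed level was 147.2, 155.5 and 152.2 RPKM in WT and 170.0, 165.1 and 166.3 RPKM in AEG-1 KO. In RPKM the sum over all 12 CD300 genes went the other way, from 873 ± 13.6 (857 to 883) to 819 ± 28.6 (792 to 849). Genes with short exons weigh most in this sum: Cd300ld4, Cd300c2 and Cd300ld2 made up 29.5%, 24.9% and 14.9% of it in WT. The mean CPM of the 12 genes, not scaled by length, summed to nearly the same level in both genotypes.

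**Figure D3:**
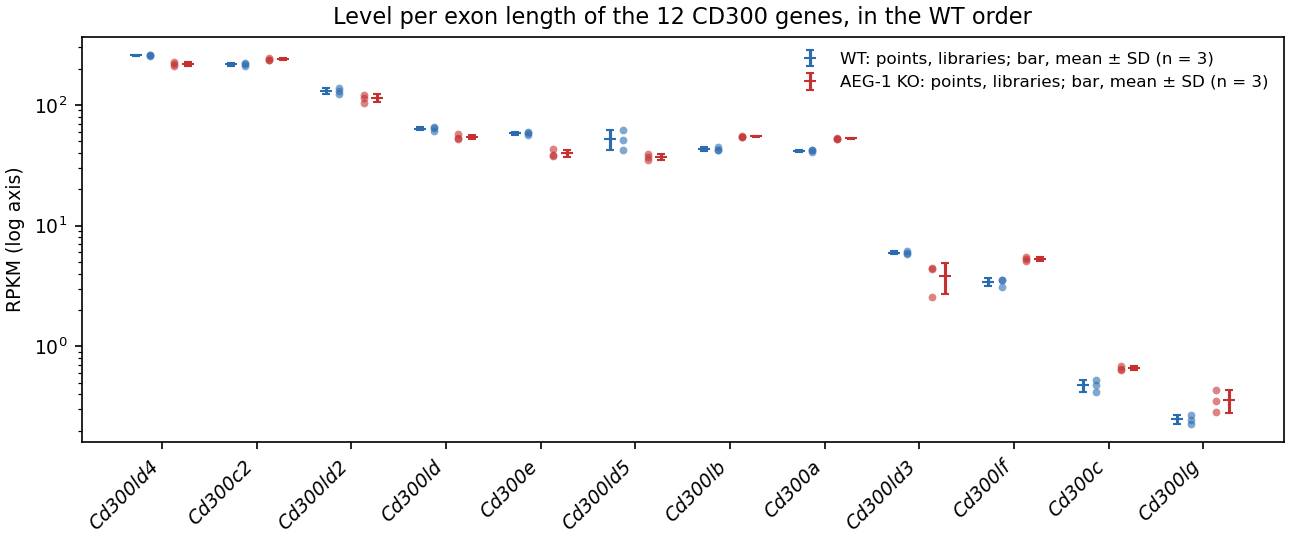
Level of the 12 CD300 genes per length of transcript (RPKM, logarithmic axis) in each library of WT and AEG-1 KO, with mean and SD, ordered by their WT mean. Cd300ld, Cd300lb and Cd300a lie in the middle of the order between 41.5 and 63.7 RPKM in WT, and Cd300lf lies below them at 3.39 RPKM.

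The family's other 8 genes were all tested, and 3 were called, each lower, beside 3.04% of all genes called lower. Cd300ld4 and Cd300ld5, among the 3, are near-copies whose reads cannot be split with certainty, so their calls are not independent. Cd300e, an activating receptor of monocytes, fell from 121 ± 4.09 to 83.1 ± 5.47 CPM (log2 fold change -0.54 ± 0.06, adjusted p = 0.000748 by edgeR), and was past the threshold in 14 of 14 other fits. Its WT libraries held 116.9, 121.6 and 125.0 CPM and its AEG-1 KO libraries 89.32, 79.25 and 80.58 CPM, with no overlap. Cd300ld4 fell from 219 ± 0.663 to 185 ± 7.03 CPM (-0.24 ± 0.04, edgeR adjusted p = 0.00979), a call lost without AEG-1 KO replicate 2 (adjusted p = 0.0637). Cd300ld5 fell from 44.3 ± 8.29 to 31.5 ± 1.73 CPM (-0.50 ± 0.12, adjusted p = 0.0395 by edgeR). This call was lost without WT replicate 2 (adjusted p = 0.0946) and without any one of the AEG-1 KO libraries (0.0770, 0.149 and 0.0914 without replicates 1, 2 and 3).

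Of the 5 that were not called, Cd300c2, which pairs with DAP12 or the gamma chain and was the most abundant CD300 gene by CPM, had 277 ± 8.28 CPM in WT and 305 ± 6.85 in AEG-1 KO (log2 fold change 0.14 ± 0.04, edgeR adjusted p = 0.0793). Cd300ld3 had -0.64 ± 0.17 (adjusted p = 0.061) and Cd300ld2 -0.20 ± 0.06 (adjusted p = 0.113). Cd300c and Cd300lg, the latter known from vascular endothelium and lying apart from the cluster, were under 1 CPM on average in both genotypes, with adjusted p of 0.185 and 0.186. The median log2 fold change of the 8 was -0.22, beside 0.01 over all genes tested. Cd300ld2 to Cd300ld5 are near-copies and were all negative, so this median counts a single sequence group as 4 genes. The rest had -0.54 (Cd300e), 0.14 (Cd300c2), 0.49 (Cd300c) and 0.52 (Cd300lg). Reads of Cd300ld2 to Cd300ld5 cannot be split with certainty: Cd300ld4 and Cd300ld5 shared 852 nucleotides at 99.88% identity, and Cd300ld5 had no stretch of 50 nucleotides of its own although it was given 1265 to 3096 reads per library. Their summed level avoids that split. It was 387, 390 and 387 CPM in WT and 340, 305 and 327 CPM in AEG-1 KO, groups that were apart, with a ratio of 0.835.

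**Figure D4:**
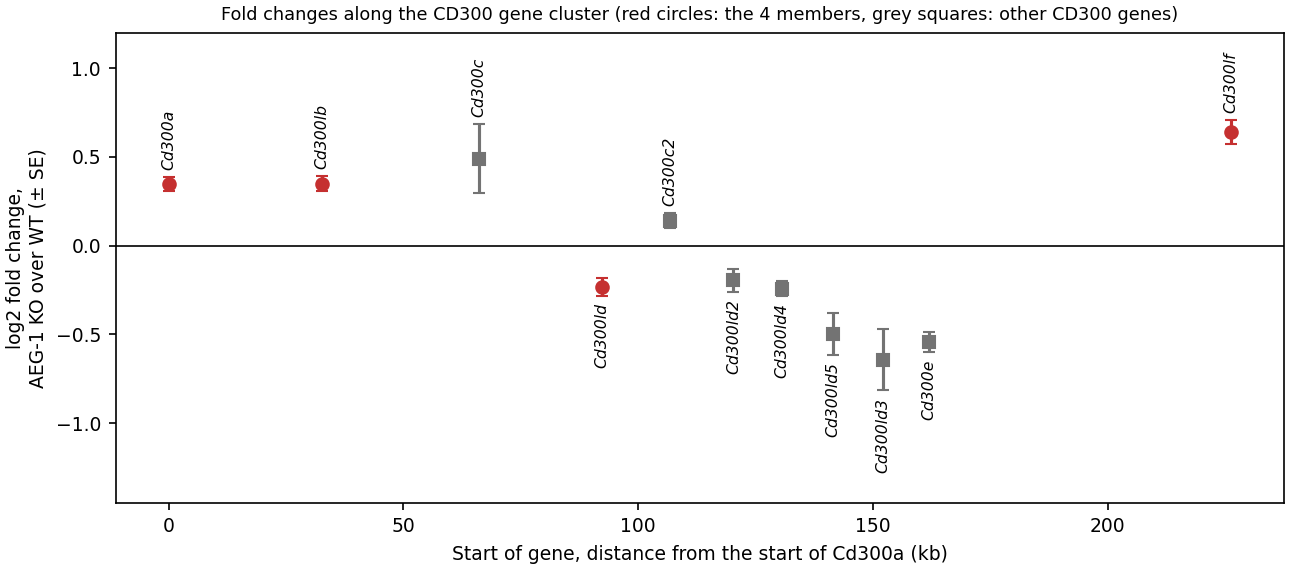
Log2 fold change of AEG-1 KO over WT (vertical axis, with SE) for the 11 CD300 genes of the cluster against the distance of their start from that of Cd300a (kb, horizontal axis). The circles mark the 4 genes and the squares the others. Cd300a, Cd300lb and Cd300lf lie above 0 together with Cd300c and Cd300c2, and Cd300ld lies below 0 together with Cd300ld2 to Cd300ld5 and Cd300e.

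Along the cluster, Cd300a and Cd300lb stand at 1 end and Cd300lf at the other. Between them, Cd300c, next to Cd300lb, had a log2 fold change of 0.49 ± 0.20, was not called and was under 1 CPM on average. Of the genes from Cd300ld to Cd300e, Cd300c2 alone had a positive log2 fold change. Of 6 tested genes of other families beside, overlapping or inside the cluster, 0 were called by edgeR, DESeq2 or limma-voom. Over all genes edgeR called 6.35%, so 0 of 6 cannot show that the neighbours were unchanged. Unadjusted edgeR p was under 0.05 for 2, Gprc5c and Slc9a3r1. Gprc5c, under 1 CPM on average in both genotypes, had a log2 fold change of 0.95 ± 0.28 with groups apart (edgeR adjusted p = 0.0829). Slc9a3r1 had 0.25 ± 0.10 with overlapping groups (adjusted p = 0.202). Kif19a and Nat9 had -0.16 and 0.15, also with overlapping groups. Rab37, within which Cd300lf lies, had a log2 fold change of -0.38 ± 0.22 (adjusted p = 0.362), and Gm11699, within Cd300lb, of 0.31 ± 0.14 (adjusted p = 0.242), both at a mean of under 2 CPM.

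Of the listed adaptors of activating receptors, Tyrobp and Fcer1g were abundant and Hcst was not. Tyrobp, which encodes DAP12, the partner of CD300lb, was at 847 ± 52.0 CPM in WT and 830 ± 58.0 in AEG-1 KO, with overlapping groups (log2 fold change -0.03 ± 0.06, adjusted p = 0.845 by edgeR). Fcer1g, which encodes the gamma chain, the partner of CD300ld, fell from 733 ± 35.1 to 605 ± 37.6 CPM (-0.28 ± 0.06, edgeR adjusted p = 0.0197). That call needed WT replicate 2 (adjusted p = 0.0883 when it was left out) and, in AEG-1 KO, replicates 1 (0.0579) and 2 (0.0762). Hcst, which encodes DAP10, had 5.34 and 5.60 CPM (adjusted p = 0.713). So 1 of the 3 adaptors was called, beside 6.35% of all genes, and nothing is read from a count over 3 genes.

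Among the 4 phosphatases that ITIM receptors recruit, Ptpn6, which encodes SHP-1, fell from 544 ± 23.6 to 458 ± 12.8 CPM (-0.25 ± 0.04, edgeR adjusted p = 0.0122), lost without WT replicate 2 (0.0591) or AEG-1 KO replicate 2 (0.0707). Ptpn11 (SHP-2), Inpp5d (SHIP-1) and Inppl1 (SHIP-2) had log2 fold changes of -0.06, 0.00 and 0.10 and adjusted p of 0.411, 0.974 and 0.448. Of 20 kinases and relays of these pathways 6 fell and none rose, with a median log2 fold change of -0.10, beside 6.35% called and a median of 0.01 over all genes. They included the Src-family kinases Fyn (-0.26, edgeR adjusted p = 0.0154) and Lyn (-0.20, 0.0246) and the exchange factor Vav1 (-0.22, 0.0107). Vav1 was lost without WT replicate 2 (adjusted p = 0.0529) or AEG-1 KO replicate 2 (0.0641), and Lyn without these (0.0590 and 0.112) or AEG-1 KO replicate 3 (0.0787). Leaving out WT replicate 2 or any 1 AEG-1 KO library put Fyn at 0.0520 to 0.0671.

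Other inhibitory receptors of myeloid cells showed no common direction. Of 16 tested of 18, 2 rose and 4 fell (median log2 fold change -0.01), beside 3.31% and 3.04% of all genes. The sialic acid receptor Siglece had a log2 fold change of -0.47 (adjusted p = 0.00114 by edgeR), the adhesion receptor Pecam1 -0.32 (0.00364) and Cd72 -0.29 (0.00997), while the inhibitory Fc receptor Fcgr2b rose by 0.37 (0.00643). The calls of Cd72 (adjusted p = 0.0642) and Fcgr2b (0.0507) were lost without AEG-1 KO replicate 2, and that of Cd72 also without WT replicate 2 (0.0507). Of the other activating receptors of myeloid cells, 5 of 19 tested of 21 were called, all higher (median log2 fold change 0.12), beside 3.31% of all genes called higher. They included Clec5a (0.53, edgeR adjusted p = 0.00438) and Trem2 (0.54, 0.00597), which use DAP12, and Fcgr3 (0.39, 0.00552) and Clec4n (0.27, 0.0246), which use the gamma chain. Clec4n was lost without WT replicate 1 (adjusted p = 0.0547) and without AEG-1 KO replicate 1, 2 or 3 (0.0785, 0.126 and 0.0716).

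CD300a, CD300lb and CD300lf belong to a wider group of receptors for phosphatidylserine on dying cells. Of 15 tested of 18 other receptors and bridging proteins for this lipid, 7 rose and none fell, with a median log2 fold change of 0.30, beside 3.31% called higher and a median of 0.01 over all genes. The receptor kinases Axl (155 ± 7.99 to 244 ± 10.4 CPM, log2 fold change 0.65 ± 0.05, edgeR adjusted p = 0.000196) and Mertk (0.39 ± 0.04, 0.00101) were among them. So were the integrin chains Itgav (0.32, 0.0119) and Itgb5 (0.30, 0.0195), whose calls were lost without AEG-1 KO replicate 2 (0.0871 and 0.0790). Itgav was also lost without WT replicate 2 (0.0629) and Itgb5 without AEG-1 KO replicate 3 (0.0645). Mertk is also among the macrophage markers counted above. Without the library that mattered most in each case, the counts of called genes were 2 of 15 here, 1 of 20 for kinases, 2 of 16 for inhibitory and 3 of 19 for activating receptors. All these lists were chosen with earlier results of these data known, so their counts beside the shares over all genes are a description and not a test.

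**Figure D5:**
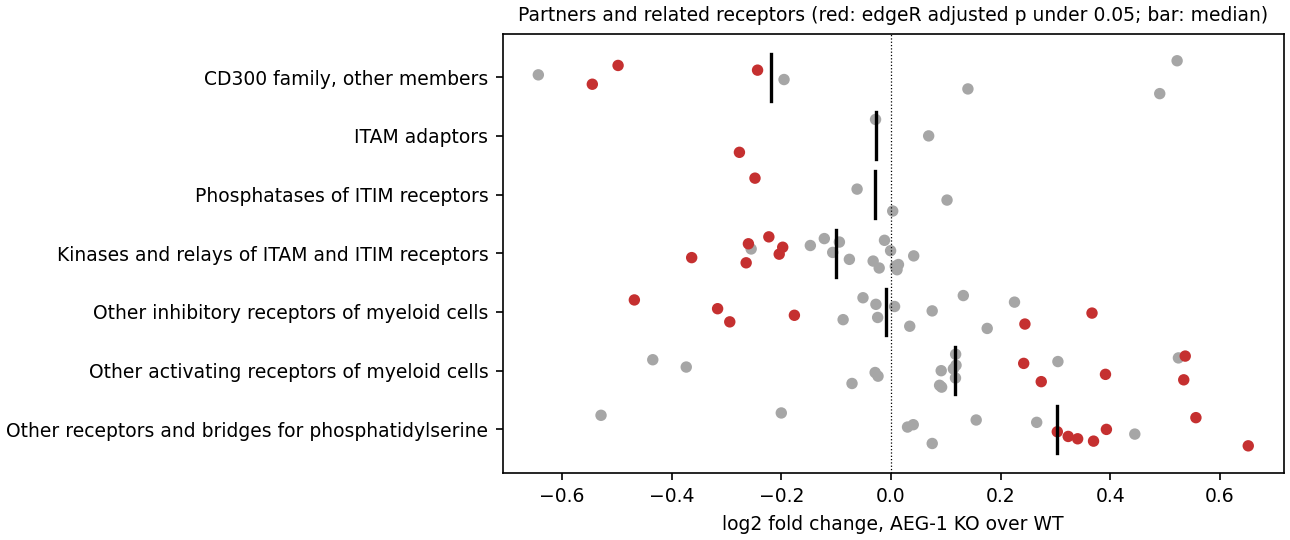
Log2 fold change of AEG-1 KO over WT (horizontal axis) for each tested gene among the other 8 CD300 genes and the groups of adaptors, phosphatases, kinases, inhibitory, activating and phosphatidylserine receptors. Red points are called genes and bars are medians. The phosphatidylserine receptors have the highest median of these groups, 0.30, and the other CD300 genes the lowest, -0.22. The median of the other CD300 genes counts the near-copies Cd300ld2 to Cd300ld5 as 4 genes.

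Genes whose profile over the 6 libraries lay closest to each of the 4 were sought by the root mean square difference of log2 CPM, each gene taken relative to its own WT mean, over 9217 named protein-coding genes. The nearest to Cd300a were S1pr1 (0.02), a receptor for a lysolipid, Cd93 (0.02) and the cholesterol exporter Abca1 (0.03). Those to Cd300lb were S1pr1 (0.02), Arhgap19 (0.03) and the endotoxin co-receptor Cd14 (0.03). Cd300a and Cd300lb lay 0.03 from each other, while Cd300lf lay 0.22 from both. Nearest to Cd300ld were Pitrm1 (0.02), Pa2g4 (0.02) and Pfkp (0.03), with log2 fold changes of -0.24, -0.22 and -0.21, and Cd300ld lay 0.62 from Cd300lf. Nearest to Cd300lf were Kctd12b (0.04), Rcbtb2 (0.06) and the monocyte marker Ly6c2 (0.06), which had 7.42 ± 0.703 CPM in WT and 11.1 ± 0.821 in AEG-1 KO. This likeness mostly follows the size of the genotype difference that was used to choose the 4 genes, and it is a description with n = 6 libraries.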

How the data were processed

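Per the labels' protocols, libraries of total macrophage RNA were prepared with a TruSeq kit and read on a HiSeq. The authors deposited unnormalized counts of reads per Ensembl gene, and per the file headers each of 6 columns is 1 library. The submitters' processing notes name the builds mm10 and GRCm38 and the tools featureCounts 1.4.6-p4, Subread, cutadapt 1.9, FastQC 0.11.2 and edgeR 3.18.1, without their roles. How multi-mapping reads and strand were handled, and with which annotation, is not given in the sources used here. Total counts ran from 42548170 to 58947230; a tested gene had a median of 684 counts in a library.

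Genotype was the only term of a quasi-likelihood fit in edgeR 4.0.16 (R 4.3.3) to all 6 libraries, after filterByExpr at a minimum count of 10 and TMM scaling. Benjamini-Hochberg adjustment ran over 16115 genes, with calls at 0.05. The SE of a log2 fold change was obtained by dividing its size by the square root of F. RPKM used the union of exons in GENCODE mouse release 21, which matched 46488 of 46983 identifiers. Stretches shared between transcripts were sought with BLAST+ 2.17.0 (at least 95% identity over 100 nucleotides). Identity between members was computed on coding sequence, since protein sequences were not used here. No 2 libraries of a genotype agreed within sampling noise.

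The 4 genes, the role lists and the marker lists were chosen with earlier results of these data known. The genes named were the CD300 genes, Mtdh, all adaptors and phosphatases, up to 4 genes with the smallest p of each other list, the 3 genes nearest in profile to each of the 4 among genes with at least 5 CPM, and tested genes next to the cluster. One gene that this rule names is not reported here. Rab37, which overlaps the CD300 cluster, and Gm11699, which lies inside the cluster, were added after their values were seen. Alternatives were RLE and upper-quartile scaling, no filter and a minimum count of 50, DESeq2 1.42.0, limma-voom (limma 3.58.1), the replicate number as a block, removal of a trend on length and GC content (mgcv 1.9.3), and leaving out each library in turn.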

Additional observations from a re-analysis of the deposited data

How the results depend on the processing

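The 4 CD300 genes kept their direction in all 14 alternative fits, with 3 or 4 of them past the threshold, a description only, since they were chosen on this contrast. Without WT replicate 1 the log2 fold change of Cd300a was 0.32. The count of called genes was 1023 (533 higher, 52.1%) and ran from 988 to 1283 (469 to 588 higher) under the other scalings, filters and tools. With the trend on length and GC content removed it was 2312, of which 969 (41.9%) were higher, with 5 of the other 8 CD300 genes and 10 of 20 kinases called. Cd300c2 then had an adjusted p of 0.0183.

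Same-numbered libraries of the 2 genotypes had deviations from their group means with r of -0.274, -0.173 and -0.251. For libraries of different number r ran from 0.0572 to 0.194. No positive likeness by replicate number was thus seen, but with 3 libraries per group this cannot show whether the libraries were paired. With the replicate number as a block, 227 genes were called, 113 of them higher, and the calls were 1 among other CD300 genes, 0 adaptors, 0 phosphatases, 1 kinase, 1 inhibitory receptor, 2 activating receptors and 2 phosphatidylserine receptors. With this block, Cd300ld was not past the threshold (log2 fold change -0.23), and Cd300ld4, Cd300ld5, Fcer1g and Ptpn6 had adjusted p of 0.109, 0.157, 0.152 and 0.13.

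Leaving out 1 library at a time gave 380 to 1092 called genes (184 to 518 higher), 1 to 3 of the other CD300 genes, 0 to 1 adaptors, 0 to 1 phosphatases, 1 to 7 kinases, 2 to 6 inhibitory receptors, 3 to 6 activating receptors and 2 to 6 phosphatidylserine receptors. The cause of these differences was not tested beyond the smaller number of libraries. At 90% identity, 13 pairs of CD300 genes shared a stretch in place of 7. Of the 11 gaps between neighbours in the WT order of levels, 9 had no overlap, and 7 in TPM. Over the longest coding transcript, a length chosen after seeing the data, there were 8. Cd300c and Cd300lg had the fewest reads of the 12 genes, and their log2 fold changes had an SE of 0.20 and 0.21.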
